A study of Mus musculus with 6 samples.

Results

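The 37 genes described here belong to the Wnt pathway: 7 ligands, 9 receptors, 7 secreted inhibitors, 2 feedback inhibitors, 7 cytoplasmic components, 2 TCF factors and 3 target genes. They were read on Affymetrix arrays of whole mouse hearts at embryonic day 16.5, with 3 FOG-2R3K5A samples (mutant from here on) and 3 wild-type samples, 1 array per sample. Each gene was taken from the probe sets that the platform annotation gives to that gene alone, and its brightest probe set over the 6 arrays stood for it. All 37 had such a probe set, among 18193 genes in all, and 30 of the 37 were bright enough to be tested, among 11113 genes in all.

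Zfpm2 encodes FOG-2, a protein that binds GATA transcription factors and modulates their activity, and the mutant protein is known to lack binding to the NuRD chromatin remodelling complex. All embryos shared a mixed C57/B6 and 129 S6 background and came from parents described only as double heterozygotes. The labels call the samples of a genotype biological replicates. The p-values weigh the difference between genotypes against the spread among samples of the same genotype. The labels do not give the zygosity of the mutants, the sex of the embryos or the number of hearts behind a sample.

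Wnt proteins are secreted lipid-modified ligands that bind Frizzled receptors, either with the coreceptors Lrp5 and Lrp6 or with receptor tyrosine kinases such as Ror1 and Ror2. In the canonical branch the signal stops a complex of Axin, Apc and Gsk3b from marking beta-catenin for breakdown, and beta-catenin then enters the nucleus and works with TCF and LEF factors. Noncanonical branches use the same Frizzled receptors without beta-catenin, and in the heart both branches are known for roles in the growth of the myocardium, the outflow tract, the valves and the epicardium.

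Of the 30 tested genes, Wif1 and Dkk2, both secreted inhibitors, rose in mutant hearts, and Tnfrsf19, a beta-catenin target, fell. Dkk2 was bright enough to be tested only because of its mutant arrays, and its call was lost under several alternative settings. A gene is called here at an adjusted p under 0.05 by limma, a linear model fitted over all 11113 tested genes with p adjusted over them by the Benjamini-Hochberg method. Called genes made up 1.76% of all tested genes (196 of 11113), 1.39% for those higher and 0.369% for those lower in mutants. At an unadjusted p under 0.05 there were 7 of the 30 Wnt genes, against 14.7% of all tested genes. The genotypes did not overlap for 8 of the 30, 6 higher and 2 lower in mutants, against 21.2% of all tested genes (11.5% higher, 9.76% lower), so the share without overlap was close to the background. The median difference between mutant and wild type was 0.07 log2 units over the 30 genes and -0.01 over all tested genes. Differences were negative for 10 of the 30, against 52.8% of all tested genes. Bulk tissue was measured, so more cells of a type and more RNA per cell cannot be told apart in any of these values.

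**Figure D1:**
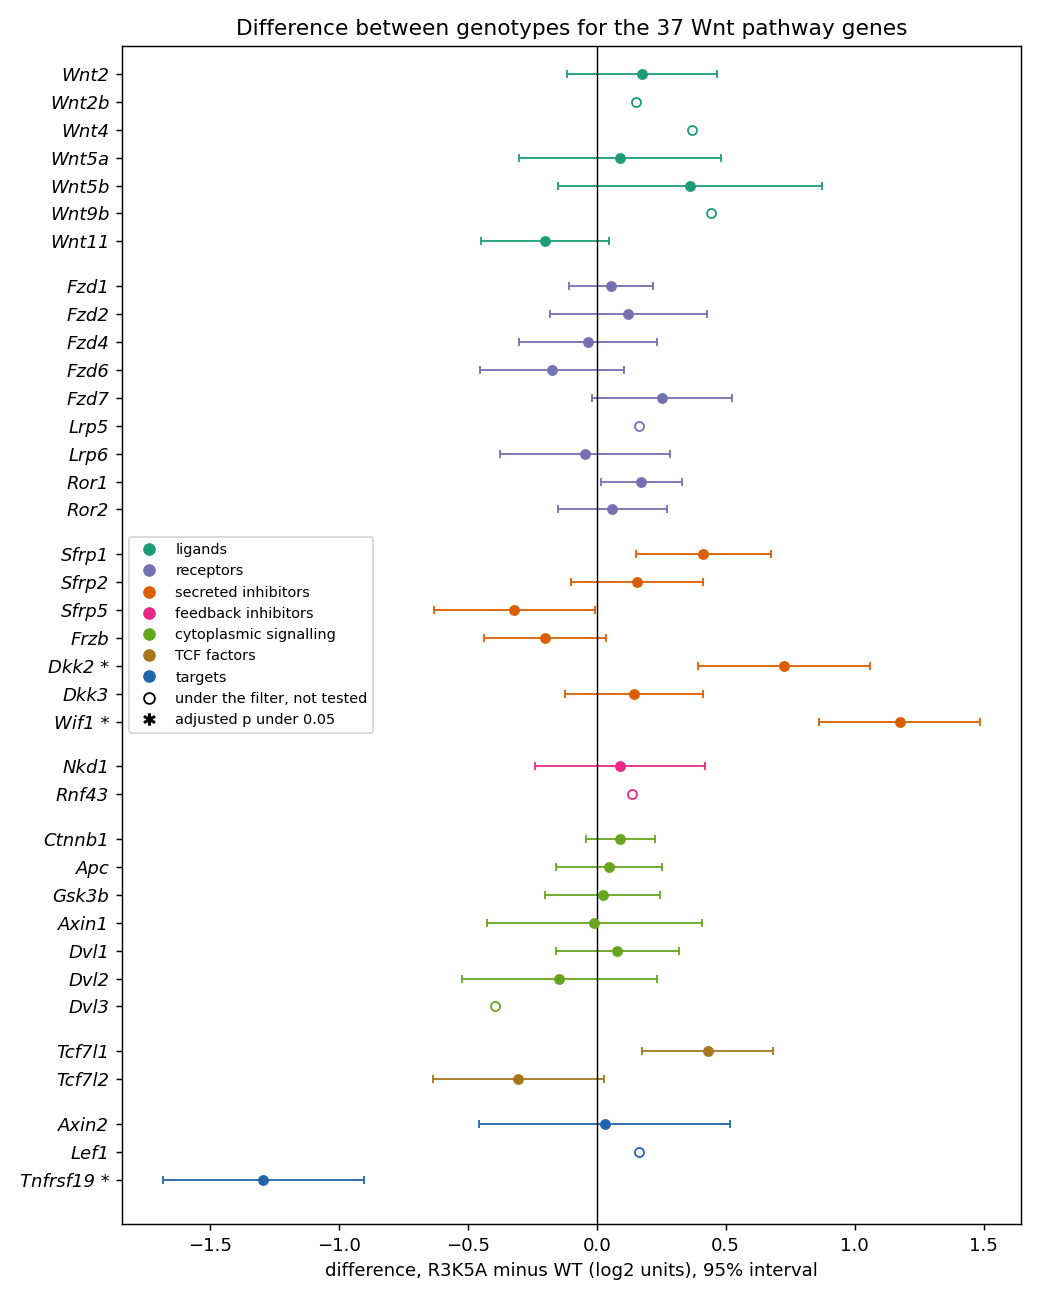
Difference between 3 mutant (R3K5A) and 3 wild-type hearts in log2 units for each of the 37 Wnt pathway genes, grouped by role, with limma's 95% interval (bars) for the 30 tested genes and open circles without an interval for the 7 genes under the filter. Wif1 at 1.17, Dkk2 at 0.73 and Tnfrsf19 at -1.29 lie farthest from 0, and the asterisk marks these 3 genes as called.

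The DNA just before the start of the 3 called genes is shown because TCF/LEF and GATA factors, the nuclear ends of the Wnt pathway and the partners of FOG-2, bind short words in promoters. Upstream sequence of 250 bases was taken by gene symbol from RefSeq (GRCm38.p6), where 28 of the 37 genes had an entry, with 38 starts between them. Capitals mark matches to the TCF/LEF words CTTTGAT and CTTTGAA or the GATA words (AGATAA or AGATAG, and likewise TGATAA or TGATAG) on either strand, and words of the 2 kinds can share letters.
Wif1 (chr10:121033754-121034003, plus strand): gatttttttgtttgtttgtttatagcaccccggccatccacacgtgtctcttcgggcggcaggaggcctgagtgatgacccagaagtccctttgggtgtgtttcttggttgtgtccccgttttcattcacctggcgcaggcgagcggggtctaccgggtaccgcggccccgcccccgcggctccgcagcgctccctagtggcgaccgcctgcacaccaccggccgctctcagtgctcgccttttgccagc
Dkk2 (chr3:132085042-132085291, plus strand): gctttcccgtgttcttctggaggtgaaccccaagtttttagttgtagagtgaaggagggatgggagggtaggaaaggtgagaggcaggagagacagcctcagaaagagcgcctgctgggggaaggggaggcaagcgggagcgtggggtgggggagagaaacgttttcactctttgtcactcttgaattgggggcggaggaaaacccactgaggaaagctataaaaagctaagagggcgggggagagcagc
Tnfrsf19 (chr14:61046856-61047105, minus strand): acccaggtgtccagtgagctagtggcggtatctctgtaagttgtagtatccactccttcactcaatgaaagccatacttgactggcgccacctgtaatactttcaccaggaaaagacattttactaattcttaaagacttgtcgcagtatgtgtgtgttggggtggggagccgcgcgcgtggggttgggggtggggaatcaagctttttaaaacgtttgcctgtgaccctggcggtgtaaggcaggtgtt
Tnfrsf19 (chr14:61037988-61038237, minus strand): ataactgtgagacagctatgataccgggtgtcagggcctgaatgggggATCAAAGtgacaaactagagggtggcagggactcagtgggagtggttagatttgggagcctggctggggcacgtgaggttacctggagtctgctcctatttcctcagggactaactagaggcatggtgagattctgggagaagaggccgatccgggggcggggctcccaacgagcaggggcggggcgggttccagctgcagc
A single match was found in the 4 windows, the TCF/LEF word CTTTGAT on the opposite strand of the second Tnfrsf19 start, 202 bases before it. Of the 38 windows, 3 held a TCF/LEF word (Tnfrsf19, Wnt11 and Wnt5b) and 8 a GATA word, against 7.48% and 26.5% of the 32851 windows of all genes. A match is not evidence of binding, and its absence says only that these letters are not in this window.

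Ligands gave no call among the 4 tested. Wnt11, a noncanonical ligand known from outflow tract development, read 8.15, 8.41 and 8.12 log2 units in mutant hearts, against 8.32, 8.50 and 8.46 in wild type, with a difference of -0.20 (SE 0.11, adjusted p = 0.438 by limma). Mutant replicate 2 lay within the wild-type range and the other two mutants below it. Wnt5a, the main noncanonical ligand of mesenchyme, read 8.61, 8.83 and 8.55 in mutants, against 9.00, 8.43 and 8.29 in wild type. Its wild-type arrays spanned more than the mutants did and enclosed them, and the difference was 0.09 (95% interval -0.30 to 0.48). A dimmer Wnt5a probe set that was also tested gave 0.42, with overlap (adjusted p = 0.446 over probe sets by limma). Wnt5b, a close relative, had 7.57, 7.24 and 7.68 in mutants, against 7.45, 6.58 and 7.38 in wild type. Wild-type replicate 2 was the low array here, and the difference of 0.36 had a wide interval (-0.15 to 0.87). The brightest Wnt5b probe set is of a class (suffix x_at) whose probes can match other transcripts. Another Wnt5b probe set, too dim to be tested, gave 0.64 without overlap. Wnt2, a ligand best known from lung and early cardiac mesoderm, had 7.11, 7.23 and 7.09 in mutants, against 6.99, 6.79 and 7.12 in wild type, overlapping, with a difference of 0.18 (SE 0.13, adjusted p = 0.556 by limma).

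Wnt2b, Wnt4 and Wnt9b stayed under the filter, a mean of 6.30 log2 units (an intensity of 78.9, the median of all probe sets other than array controls), and were not tested. Wnt4, a ligand with known roles in kidney and gonad, came nearest to it, at 6.23, 6.76 and 6.38 in mutants, against 6.23, 5.91 and 6.12 in wild type. The lowest mutant array, at an intensity almost equal to the highest wild-type array, left the groups just apart, and a second, dimmer Wnt4 probe set also had every mutant array (5.67 to 6.27) above every wild-type array (5.32 to 5.51). With no filter on dim genes the difference of Wnt4 was 0.37 (SE 0.18, adjusted p = 0.469 by limma). Wnt9b, an endocardial ligand, read 4.98 to 5.91 in mutants and 4.46 to 5.13 in wild type, and Wnt2b read 4.88 to 5.20 and 4.68 to 5.16.

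Receptors gave no call among the 8 tested, and their differences lay between -0.17 and 0.25. Ror1, a receptor tyrosine kinase for Wnt5a, read 9.93, 9.86 and 9.93 in mutants, against 9.70, 9.75 and 9.75 in wild type. It was the tightest receptor within both genotypes and the one tested receptor without overlap, with a difference of 0.17 (SE 0.07, adjusted p = 0.290 by limma). Ror2, its relative, overlapped, with 9.42 to 9.68 in mutants and 9.37 to 9.52 in wild type. Fzd7, a Frizzled that couples to both branches, read 8.40, 8.16 and 8.42 in mutants, against 8.22, 8.11 and 7.90 in wild type, and its difference of 0.25 (95% interval -0.02 to 0.52) did not pass. Fzd1, Fzd2 and Fzd4 (differences of 0.06, 0.12 and -0.03) overlapped between genotypes. The interval of Fzd1 ran from -0.11 to 0.22, that of Fzd2 from -0.18 to 0.43 and that of Fzd4 from -0.30 to 0.23. Lrp6, the coreceptor that recruits Axin, had 9.11, 8.97 and 9.27 in mutants, against 8.94, 9.50 and 9.05 in wild type, while its second probe set read 8.59, 8.39 and 8.47 in mutants, against 8.18, 7.90 and 8.03 in wild type. The probe sets of Lrp6 therefore differed in sign, at -0.05 and 0.44, and neither was called (adjusted p = 0.915 over genes and 0.116 over probe sets by limma). Lrp5 stayed under the filter, at 4.43 to 5.09 in mutants and 3.89 to 5.58 in wild type.

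Fzd6, a Frizzled best known from planar cell polarity, had probe sets that disagreed widely in size. The brightest read 8.27, 8.48 and 8.56 in mutants, against 8.69, 8.40 and 8.73 in wild type, overlapping, with a difference of -0.17 (adjusted p = 0.544 by limma). The second read 5.84, 5.98 and 6.38 in mutants, against 7.14, 7.17 and 7.02 in wild type. Its 3 mutant arrays were all far below the wild-type arrays, with a mean under the filter level, so it was tested only because of its wild-type values. It was at least 1.75-fold lower in mutants counted from that level (fitted difference -1.04, SE 0.16, adjusted p = 0.0244 by limma over 22518 probe sets, of which 223 were called). Another one, under the filter, was listed at 0.00 to 0.36 in mutants, at or near the floor of the values, against 3.10 to 3.76 in wild type. Fzd6 is the 1 gene of the 37 on chromosome 15, where Zfpm2 also lies, with 8 protein-coding genes between them in GRCm38.p6. Which parental strain's sequence each heart carried there is not given, and whether it bears on the 3 probe sets was not tested.

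Secreted inhibitors held both rises. Wif1, which binds Wnt proteins outside the cell, read 9.90, 9.76 and 9.84 log2 units in mutant hearts, against 8.32, 8.86 and 8.79 in wild type. Mutants were tightly grouped (9.83 ± 0.07, SD, n = 3) and lay well above every wild-type array (8.66 ± 0.30), among which replicate 1 was lowest. The difference was 1.17 (SE 0.14), or 2.26-fold (95% interval 1.82 to 2.80), with an adjusted p of 0.00514 by limma. It was called with each array left out in turn, but a single probe set reads Wif1, so no second one could be set beside it. Dkk2, which binds Lrp5 and Lrp6, read 7.04, 6.77 and 7.21 in mutants, against 6.29, 6.32 and 6.23 in wild type. Wild-type arrays sat at the filter level and all mutant arrays above it, so Dkk2 was tested only because of its mutant values. Its mutant mean was 1.63-fold above that level (fitted difference 0.73, SE 0.15, 95% interval 0.39 to 1.06, adjusted p = 0.0467 by limma). That call was lost when any array other than wild-type replicate 1 was left out (adjusted p = 0.0674 to 0.226), although the difference stayed between 0.62 and 0.85, and a single probe set reads the gene.

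The Sfrp family, secreted proteins with a Frizzled-like domain that binds Wnts, moved less and gave no call. Sfrp1 read 11.38, 11.45 and 11.19 in mutants, against 11.17, 10.90 and 10.70 in wild type, just without overlap. Its difference of 0.41 (SE 0.12, adjusted p = 0.137 by limma) was called without wild-type replicate 1, at 0.54 (adjusted p = 0.0265). The other 4 Sfrp1 probe sets gave smaller differences, from -0.06 to 0.20. Sfrp5 had 6.62, 6.64 and 6.77 in mutants, against 7.20, 6.83 and 6.95 in wild type, with all mutants below all wild types (difference -0.32, SE 0.14, adjusted p = 0.328 by limma). Sfrp2 overlapped, at 9.67 to 9.82 in mutants and 9.35 to 9.77 in wild type. Frzb, also known as Sfrp3, read 7.88 to 8.09 in mutants and 8.09 to 8.28 in wild type, with a difference of -0.20 (95% interval -0.44 to 0.04). Dkk3, a divergent Dickkopf protein whose part in Wnt signalling is unsettled, had 0.14 (95% interval -0.12 to 0.41), and its second probe set 0.25 without overlap.

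**Figure D2:**
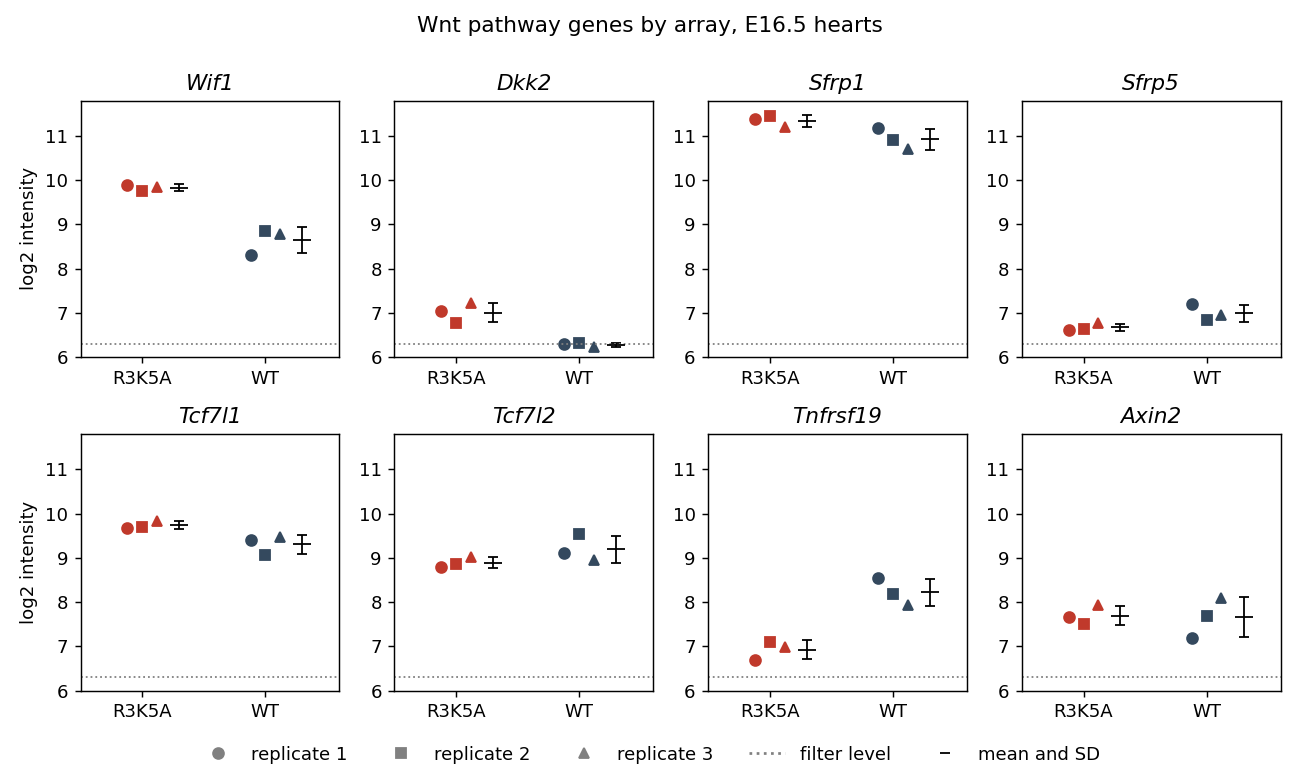
Log2 intensity of 8 Wnt pathway genes on each array (symbols mark replicates 1 to 3), mutant (R3K5A, red) left of wild type (WT, dark), with the mean and SD (n = 3) beside each genotype and the filter level of 6.30 as a dotted line. Wif1 lies higher (9.83 against 8.66) and Tnfrsf19 lower (6.93 against 8.22) on every mutant array, Dkk2 in wild type lies at the filter level, and Axin2 overlaps.

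Markers of other cell types were read on the same arrays. Summed over 15 epicardial markers, intensity was 9929 to 10906 in mutants and 7971 to 8414 in wild type. Muc16 and Dmkn passed the filter only through the mutant arrays, and of the other 13 markers 6 rose, while 4 (Wt1, Tbx18, Tcf21 and Aldh1a2) had negative differences with no call. Of all tested genes 1.39% were called higher and 0.369% lower. For 11 fibroblast and valve markers, all but Twist1 above the filter, the sum was 36412 to 38847 in mutants and 32776 to 35449 in wild type. Of the 10 tested, 2 rose and 3 had negative differences. For 10 cardiomyocyte markers, all above the filter, the sum was 85186 to 86985 in mutants and 81195 to 84332 in wild type. Of these markers 0 were called by limma (2 at an unadjusted p under 0.05), and 4 had negative differences. These 3 sums, which weigh bright genes most, were thus higher on every mutant array, as Wif1, Dkk2 and Sfrp1 were. The part of the sums in the differences of these genes was not tested. The sums of the endothelial, smooth muscle, skeletal muscle and neural and glial lists overlapped between genotypes. Among their genes Vwf, of endothelium, rose 1.90-fold, and Aplnr, also of endothelium, and Tnni2, of skeletal muscle, fell to 0.542 and 0.488 of wild type. Of 8 lung markers 3 were above the filter, Sftpc and Scgb3a2 only through mutant arrays, and Nkx2-1, Sftpd, Sftpa1, Scgb1a1 and Cldn18 were under it. The lung sum was 745 in mutant replicate 1, 252 in replicate 2 and 3563 in replicate 3, with wild-type arrays at 247 to 391. Mutant replicate 2, within the wild-type range of the lung sum, had Wif1 at 9.76, Dkk2 at 6.77 and Tnfrsf19 at 7.10. Of the mutant arrays it lay nearest to wild type for each of these genes, though outside the wild-type range. Whether lung tissue bears on these differences was not tested.

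Feedback inhibitors, which dampen signalling from within the receiving cell, gave no call. Nkd1, a Dishevelled-binding protein induced by Wnt signals, read 7.76, 7.90 and 7.75 in mutants, against 7.64, 7.47 and 8.02 in wild type. Wild type enclosed the mutants, and the difference was 0.09 (95% interval -0.24 to 0.42). Rnf43, a ubiquitin ligase that removes Frizzled from the cell surface, was under the filter, at 2.91 to 4.14 in mutants and 2.64 to 3.87 in wild type.

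Cytoplasmic components differed little, with 0 of 6 called by limma, 0 of 6 at an unadjusted p under 0.05 and differences between -0.14 and 0.09. Ctnnb1, which encodes beta-catenin, read 12.85, 12.87 and 12.86 in mutants, against 12.84, 12.62 and 12.83 in wild type. Only wild-type replicate 2 stood apart, and the difference was 0.09 (95% interval -0.04 to 0.22), with other probe sets at -0.04 and 0.05. Apc, the scaffold of the destruction complex, had 0.05 (95% interval -0.16 to 0.25), and its 3 other probe sets ran from 0.08 to 0.26. Gsk3b, the kinase that marks beta-catenin, had 0.02 (95% interval -0.20 to 0.25). Axin1, the constitutive Axin, had -0.01 (95% interval -0.43 to 0.41), with arrays spread over 8.51 to 9.06 in mutants and 8.46 to 9.12 in wild type. The Dishevelled genes, which relay the signal from Frizzled, overlapped between genotypes, with Dvl1 at 0.08 and Dvl2 at -0.14, and Dvl3 was under the filter.

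The 2 TCF factors lay on opposite sides of 0, with no call. Tcf7l1, which mostly acts as a repressor of Wnt targets, read 9.69, 9.70 and 9.84 in mutants, against 9.41, 9.07 and 9.46 in wild type. All mutants lay above all wild types, with a difference of 0.43 (SE 0.11, 1.35-fold, adjusted p = 0.112 by limma), and a second probe set gave 0.18, again without overlap. Tcf7l2, the widely expressed partner of beta-catenin, read 8.79, 8.86 and 9.03 in mutants, against 9.11, 9.54 and 8.95 in wild type. Its arrays overlapped through wild-type replicate 3, with a difference of -0.30 (95% interval -0.63 to 0.03), and a second probe set gave -0.15.

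Among the 3 target genes Tnfrsf19 fell and Axin2 did not pass. Tnfrsf19, a receptor of the TNF family also known as Troy, read 6.69, 7.10 and 6.99 in mutants, against 8.54, 8.18 and 7.94 in wild type. Every mutant array was below every wild-type array by a wide margin (6.93 ± 0.21 in mutants and 8.22 ± 0.31 in wild type, SD, n = 3). Its level in mutants was 0.408 of that in wild type (95% interval 0.312 to 0.535), a fall by 1.29 on the log2 scale (SE 0.17, adjusted p = 0.00886 by limma). The other probe sets gave smaller differences, with -0.25 for one above the filter that overlapped (adjusted p = 0.463 over probe sets) and -0.59 without overlap for one under it, so the mean over the 3 was -0.71, still called. Without mutant replicate 3 the adjusted p was 0.0518, at a difference of -1.33.

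Axin2, the inducible Axin that is the most used readout of canonical signalling, read 7.65, 7.50 and 7.93 in mutants, against 7.19, 7.70 and 8.10 in wild type. The wild-type arrays ran wider than the mutants and enclosed them, so the difference of 0.03 (SE 0.22) came with a 95% interval of -0.46 to 0.52, or 0.729 to 1.43 as a ratio of mutant to wild type. With single arrays left out the difference ran from -0.21 (without wild-type replicate 1) to 0.25, and without mutant replicate 3 it was -0.09. Lef1, a nuclear partner of beta-catenin and itself a target, was under the filter on every array, at 5.34, 5.34 and 5.20 in mutants, against 5.35, 4.98 and 5.07 in wild type, and its 2 probe sets differed in sign (0.16 and -0.24).

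**Figure D3:**
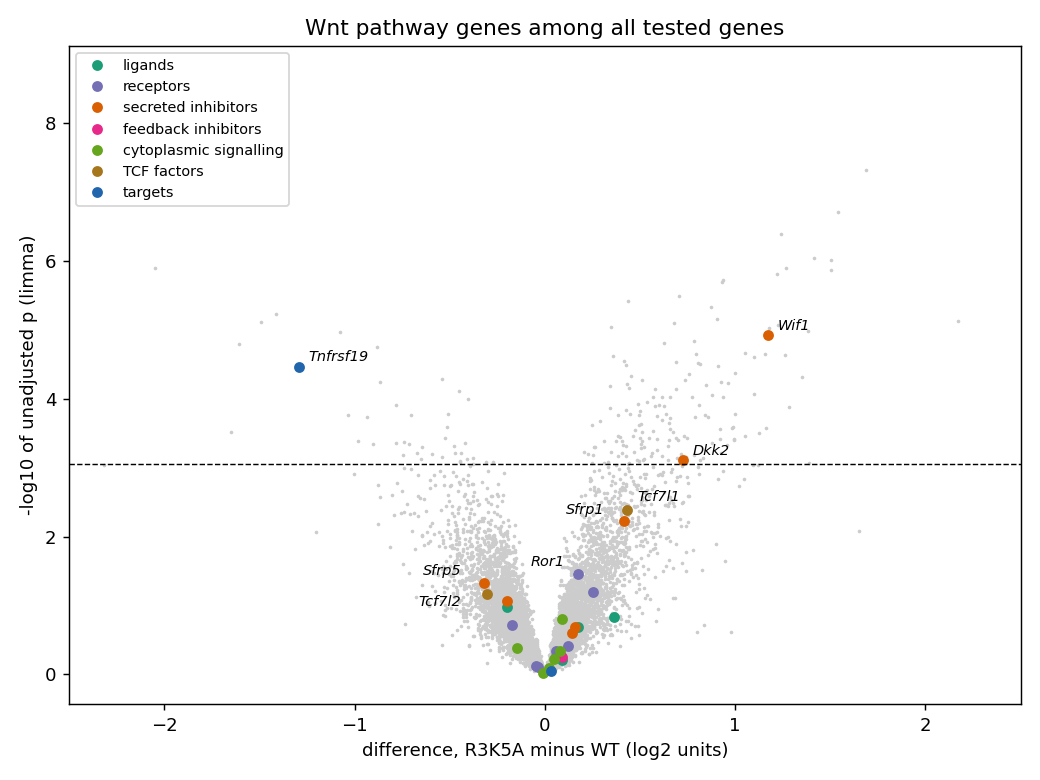
Difference between mutant and wild type (x, log2 units) against -log10 of the unadjusted limma p (y) for the 11113 tested genes (grey, 2 of them outside the x range) and the 30 tested Wnt pathway genes (coloured by role). The dashed line marks the largest p among called genes, and Wif1, Dkk2 and Tnfrsf19 lie above it, Dkk2 only just.

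How well the probe sets of a gene agreed differed across the pathway. Of the 37 genes, 9 had 1 probe set, and 18 of the tested genes had at least 1 further probe set above the filter, 30 such probe sets in all. For 10 of these 18 genes each further probe set had the sign of the brightest one, and for 8 at least 1 had the opposite sign (Fzd2, Lrp6, Ror1, Ror2, Sfrp1, Ctnnb1, Gsk3b and Dvl1), 0 of these 8 being called. Of the 30 further probe sets 1 was called, that of Fzd6. Within genotypes the spread was lower in mutants, with a median SD over the 30 tested genes of 0.14 log2 units, against 0.20 in wild type.

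**Figure D4:**
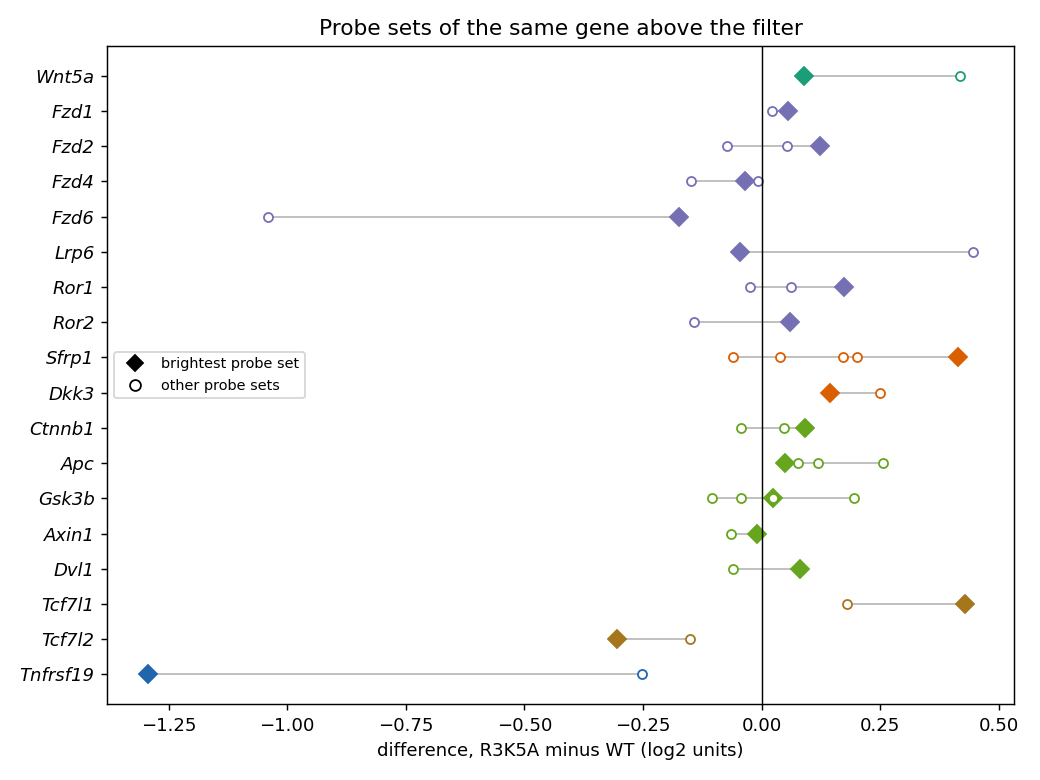
Difference between mutant and wild type (log2 units) for every probe set above the filter in the 18 Wnt pathway genes with more than 1, with the brightest probe set as a filled diamond and the others as open circles. The widest gaps are in Tnfrsf19 (-1.29 and -0.25) and Fzd6 (-0.17 and -1.04).

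Further genes of the pathway showed 1 call. Of 97 such genes 95 had a probe set, 69 were tested, and 1 rose and 0 fell, against 1.76% of all tested genes called. The median difference of the 69 was -0.03 log2 units, and 16 (23.2%) had an unadjusted p under 0.05, against 14.7% of all tested genes. Cd44, a hyaluronan receptor that beta-catenin can induce and that many other signals also regulate, read 11.03, 11.13 and 10.88 in mutants, against 10.57, 10.62 and 10.43 in wild type. All mutants lay above all wild types, and it rose by 0.47 (SE 0.08, 1.39-fold, adjusted p = 0.0295 by limma). Its other 2 probe sets above the filter gave 0.63 and 0.76 and were called over probe sets (adjusted p = 0.00784 and 0.0285). The call of the brightest probe set was lost without mutant replicate 1 or 2 or wild-type replicate 2 or 3.

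In the other roles 0 genes were called, and the gene with the smallest p of each role is given. Sost, a secreted inhibitor that binds Lrp5 and Lrp6 and is best known from bone, read 7.31, 6.94 and 7.23 in mutants, against 6.28, 6.62 and 5.85 in wild type. Its wild-type mean was under the filter, so Sost was tested only because of its mutant values. Rspo3, an R-spondin that strengthens Wnt signals and is needed for coronary vessels in mice, read 7.22, 7.24 and 7.10 in mutants, against 6.79, 6.16 and 6.34 in wild type. Neither passed (adjusted p = 0.0666 for Sost and 0.0709 for Rspo3 by limma). Sost was at least 1.81-fold higher in mutants counted from the filter level (fitted difference 0.91), and Rspo3 had a difference of 0.75. Their genotypes did not overlap, as was so for 21.2% of all tested genes. Wnt1, the founding member of the ligand family, had 5.99, 6.26 and 5.88 in mutants, against 6.66, 7.11 and 6.63 in wild type. Its mutant mean was under the filter, so Wnt1 was tested only because of its wild-type values. Counted from the filter level it was at least 1.41-fold lower, with no call (fitted difference -0.75, adjusted p = 0.0815 by limma). Ctbp2, a corepressor that binds TCF factors, had a small difference of -0.23 with tight arrays (10.74 ± 0.02 in mutants and 10.96 ± 0.02 in wild type, SD, n = 3). Among receptors and coreceptors Reck, which with Adgra2 presents Wnt7 to Frizzled, had 0.37, among planar polarity genes Prickle1 had -0.29, and among cytoplasmic regulators Cxxc4, a Dishevelled-binding inhibitor, had -0.39. Their adjusted p by limma were 0.106, 0.145 and 0.319.

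Further known targets of beta-catenin gave values on both sides of 0. Mycn had -0.39 without overlap, Myc -0.15, Ccnd1 -0.02, Jag1 -0.04, Id2 0.17 and Bambi 0.19. Except for Mycn (adjusted p = 0.173 by limma) these overlapped between genotypes, and the interval of Ccnd1, a cyclin of the G1 phase, ran from -0.19 to 0.14. Sp5 (-0.69), Ascl2 (0.07) and Isl1 (0.53) were under the filter and not tested, and only Isl1 among them was without overlap.

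**Figure D5:**
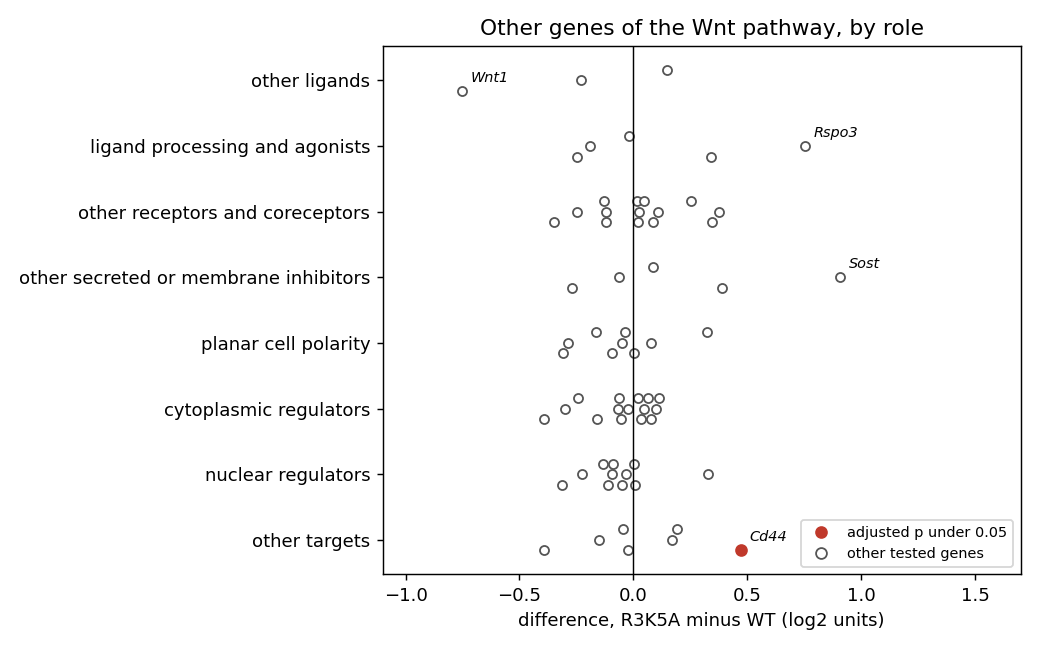
Difference between mutant and wild type (log2 units) for the 69 tested genes of the Wnt pathway outside the 37, by role (rows, with points staggered up and down for legibility). Cd44 at 0.47 is the 1 called gene (filled), while Sost at 0.91, Rspo3 at 0.75 and Wnt1 at -0.75 lie farther from 0 and were not called. Sost was tested only because of its mutant values, and Wnt1 only because of its wild-type values.

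Over all tested genes, pairs of mutant arrays correlated at 0.990 to 0.995, pairs of wild-type arrays at 0.982 to 0.986, and mixed pairs at 0.972 to 0.990. Wild-type replicate 1 correlated more closely with each mutant array than the other wild-type arrays did, and without it 451 genes were called in place of 196. It was the wild-type array farthest from the mutants for Wif1 and Tnfrsf19, and for Dkk2 it lay between the other two wild-type arrays. Zfpm2 itself was 1.36-fold higher in mutants (adjusted p = 0.0134 by limma), a value that does not check the labels, since the allele changes amino acids.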

How the data were processed

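The authors deposited a table of linear intensity values for 45101 Affymetrix probe sets, of which 64 are array controls, from 3 µg of biotin-labelled total RNA per sample, per the labels' protocols. Software, summary method and scaling: not given in the sources used here. Array medians lay within 0.12 log2 units, and no detection call was used, so the number of arrays limits the precision. The genes and gene lists were chosen with earlier results of these data known.

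Values under 1 were raised to 1 before taking log2. The 34945 probe sets with 1 gene symbol gave 18193 genes, each read by the probe set with the highest mean. Genes with a mean above 6.30, the median of all non-control probe sets, were tested (11113). The mutant arrays were set against wild type in R 4.3.3 by limma 3.58.1 (lmFit, then eBayes with intensity trend, two-sided, Benjamini-Hochberg over all tested genes), and probe sets in a fit of their own. The fit was also run on simulated data with independent noise on each array. That setting holds no batch, pairing or shift in cell content, and no conclusion is drawn from it here. Named were all 37 members and, of the other Wnt genes, the called ones or, in a role with none, that with the smallest p. The other targets, Adgra2 and the marker genes were named after their values were seen. Alternatives were normalization, offset, filter, probe sets, variance model, array weights, replicate block, the Xist level and each array left out. Deviations of same-numbered samples correlated at -0.06, 0.13 and 0.41, and those of differently numbered samples at -0.32 to 0.25. These values do not settle whether numbers mark pairs, and the main fit did not take them as such. Figures were drawn with matplotlib 3.10.9.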

Additional observations from a re-analysis of the deposited data

How the results depend on the processing

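Depth of signal limits the 7 Wnt genes under the filter and Dkk2, which sits at it in wild type. Wif1 stayed called under every alternative run (differences of 1.00 to 1.28). Tnfrsf19 stayed called except without mutant replicate 3, at -0.71 to -1.43. Dkk2 lost its call without the filter (adjusted p = 0.108), with the replicate block (0.0575), with the Xist level as a covariate (0.230) and without single arrays, and the stricter filter removed it. In the fit over probe sets Dkk2 was not called either (adjusted p = 0.0575 by limma). Sfrp1 was called with array weights (difference 0.51), the replicate block (difference 0.41) and without wild-type replicate 1. The number of called Wnt genes, 3 of 30, was 2 to 4 under the alternatives that used all arrays, including 3 with the replicate block, and 1 to 4 with arrays left out. It was 1 without mutant replicate 3.

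Over all genes, 196 calls became 81 without a filter, 125 with the mean over probe sets, 119 without the intensity trend, 429 with array weights and 43 with the Xist level, and 37 to 451 with arrays left out. The replicate block gave 234. Xist itself read 11.90, 11.72 and 10.82 log2 units in mutants, against 11.58, 12.03 and 12.12 in wild type, with overlap. The 1 call among other Wnt genes became 0 by limma without a filter (18 at an unadjusted p under 0.05), with the mean over probe sets (9), without the trend (17) and with the Xist level (12), 2 with the replicate block (Cd44 and Wnt1), 4 with array weights and 0 to 4 with arrays left out. The cause of these shifts was not tested.

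Uncalled genes near 0 changed sign, and the cause was not tested. With the Xist level Fzd4 had 0.12 and Ror2 -0.036. With array weights Fzd4 had 0.051, Ror2 -0.0071, Dvl1 -0.0066, Dvl2 0.018 and Axin2 -0.13. With the mean over probe sets Lrp6 had 0.20, Ror2 -0.041 and Gsk3b -0.0085. With median centring Fzd4 had 0.0074 and Axin1 0.033, and with quantile normalization Axin1 had 0.014. Other probe sets gave -0.073 for Fzd2, -0.044 for Ctnnb1, -0.042 and -0.10 for Gsk3b, -0.060 for Dvl1, -0.025 for Ror1, 0.44 for Lrp6, -0.14 for Ror2 and -0.061 for Sfrp1. With arrays left out the ranges were -0.029 to 0.12 for Apc, -0.19 to 0.14 for Axin1, -0.21 to 0.25 for Axin2, -0.019 to 0.23 for Fzd2, -0.10 to 0.10 for Fzd4, -0.040 to 0.11 for Gsk3b, -0.16 to 0.12 for Lrp6, -0.029 to 0.24 for Nkd1, -0.018 to 0.11 for Ror2 and -0.051 to 0.30 for Wnt5a.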
